A study of Mus musculus with 7 samples.

Results

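Genomic occupancy of the transcription factor Runx3 and of the histone mark H3K4me1 was examined at 8 genes that encode chains of the common gamma-chain cytokine receptors: Il2ra, Il2rb, Il2rg, Il4ra, Il7r, Il9r, Il15ra and Il21r. The members were the regions of the Runx3 and H3K4me1 lists whose midpoint lay in the gene body or within 50 kb of it, a stretch called the window below. By this rule 15 of 4934 Runx3-bound regions and 99 of 76705 H3K4me1-marked regions belonged to the 8 genes. Resting CD8+ T cells (CD8-TC) were taken from spleens of wild type ICR mice on anti-CD8 magnetic beads, with cells of 18 mice pooled. The stated purity was about 95%. No animal carried an allele or received an agent. There were 3 Runx3 samples from 2 biological repeats, and 2 of the 3 were labelled as files of the same precipitation. There were also 2 H3K4me1 libraries and 2 libraries of the control precipitation with NIS. NIS is the serum of a non-immune rabbit, and its libraries were used in the region calling only.

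These receptors share the chain encoded by Il2rg, which pairs with a private chain to bind IL-4, IL-7, IL-9 or IL-21, and with Il2rb for IL-2 and IL-15. Il2ra and Il15ra encode the chains that give high affinity for IL-2 and IL-15. The shared chain binds the kinase Jak3, the partner chains bind Jak1, and both kinases activate STAT factors. In CD8-TC, IL-7 and IL-15 sustain resting and memory cells, and IL-2 drives growth after activation. Runx3 binds DNA at RUNX motifs, and H3K4me1, monomethylation of histone H3 at lysine 4, marks enhancers and the flanks of promoters.

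Each antibody had a single list called on its joined repeats, so no value below has a replicate error and no group of samples could be tested against another. The lists give positions but neither heights nor reads, and the depth behind each region is unknown. Counts at the receptor genes are therefore set beside the same counts over all 22350 protein-coding genes or over the whole list, as a description. Intervals are exact 95% binomial intervals that cover counting error over regions or genes, which are not independent of each other. H3K4me1 was used to check the labelled cell type. It was found in the gene body of 7 of 7 T-cell markers (31.5 to 61.7% of the body covered, median 49.9%). It was also found at 5 of 5 B-cell markers (20.5 to 53.8%, median 27.6%), at 3 of 4 myeloid markers (0 to 98.0%, median 20.4%, Lyz2 at 0) and at 1 of 2 NK markers (30.5%, Ncr1 at 0). Of all protein-coding genes, 59.9% held the midpoint of an H3K4me1-marked region in the gene body, and the median cover of the body was 4.13%. The highest myeloid value, at Cd14, a gene of 1663 bp, was above that of every T-cell marker. At the erythroid markers the cover was 0 and 0.0538%. The part of other cells in the values below was not tested.

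The sequences that carried the clearest RUNX motifs in the Runx3-bound regions are shown first. The motif was searched as the letters TGTGGT, with the variants TGTGGC, the rarer TGCGGT and the rarest, TGCGGC, on both strands in the 200 bp around each midpoint. The sequences are those of the NCBIM37 (mm9) reference, plus strand, and not of the ICR mice. Capitals mark each RUNX motif. On the minus strand TGTGGT appears in print as ACCACA, while TGTGGC appears as GCCACA and TGCGGT appears as ACCGCA. Exonic bases were left out, apart from 30 bases around the motif at Il7r. The first set shows the 3 regions at receptor promoters, chr2:11564313-11564418 upstream of Il2ra, chr15:78325634-78325833 upstream of Il2rb, and chr15:9459611-9459640 at the start of Il7r.
Il2ra promoter: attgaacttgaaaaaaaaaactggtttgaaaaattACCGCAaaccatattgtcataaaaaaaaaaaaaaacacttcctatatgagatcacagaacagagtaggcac
Il2rb promoter: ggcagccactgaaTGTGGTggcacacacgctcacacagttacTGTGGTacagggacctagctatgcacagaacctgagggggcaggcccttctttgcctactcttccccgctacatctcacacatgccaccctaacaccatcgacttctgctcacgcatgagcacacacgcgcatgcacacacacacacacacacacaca
Il7r start: tgtgcctgctaaACCACAgacagggaacta

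The second set shows regions outside the promoters with 2 or 3 motifs. The region in the intron of Il2ra (chr2:11576997-11577196) and the one upstream of Il2rb (chr15:78341347-78341546) had 2 motifs close together. The region far upstream of Il7r (chr15:9504664-9504863) had 2 motifs farther apart. In the introns of Il21r, one region had 3 motifs (chr7:132750935-132751134) and another had a RUNX motif that ran into an ETS motif (chr7:132773960-132774159).
Il2ra intron: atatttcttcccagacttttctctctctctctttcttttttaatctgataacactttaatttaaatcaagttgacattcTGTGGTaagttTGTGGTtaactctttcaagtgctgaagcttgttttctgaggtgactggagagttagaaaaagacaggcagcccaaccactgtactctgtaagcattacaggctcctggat
Il2rb upstream: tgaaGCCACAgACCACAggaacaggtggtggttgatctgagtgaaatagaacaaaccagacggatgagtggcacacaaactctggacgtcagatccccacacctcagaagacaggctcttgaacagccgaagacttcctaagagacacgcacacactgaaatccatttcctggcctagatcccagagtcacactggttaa
Il7r upstream: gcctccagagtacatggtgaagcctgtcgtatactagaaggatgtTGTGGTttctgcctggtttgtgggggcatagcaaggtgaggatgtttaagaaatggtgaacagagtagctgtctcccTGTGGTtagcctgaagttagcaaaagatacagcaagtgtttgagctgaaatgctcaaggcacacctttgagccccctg
Il21r first intronic region: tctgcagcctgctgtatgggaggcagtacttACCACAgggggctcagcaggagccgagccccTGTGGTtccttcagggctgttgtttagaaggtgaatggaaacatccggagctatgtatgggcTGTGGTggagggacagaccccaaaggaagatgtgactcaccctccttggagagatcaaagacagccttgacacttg
Il21r second intronic region: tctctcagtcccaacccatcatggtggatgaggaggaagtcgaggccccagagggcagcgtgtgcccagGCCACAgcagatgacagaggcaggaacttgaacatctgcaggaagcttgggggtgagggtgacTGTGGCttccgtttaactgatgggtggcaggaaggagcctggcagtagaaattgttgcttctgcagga

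Runx3 was bound near 6 of the 8 receptor genes (interval 34.9 to 96.8%), whereas 30.8% of all protein-coding genes had a Runx3-bound region in a window made in the same way. Il2ra and Il21r had 5 regions each, Il2rb and Il4ra had 3, and Il7r and Il15ra had 2. Il2rg and Il9r had 0. The 4 genes with 3 or more regions compare with 3.57% of all genes. This count depended on the margin, with 2 such genes at 10 kb (0.940% of all genes) and 6 at 100 kb (8.69%), and it was 2 when each region went to the nearest protein-coding transcript start. The median was 2.5 regions per receptor gene against 0 over all genes. The windows of Il2ra and Il15ra overlap, as do those of Il4ra and Il21r, so that 5 of the 15 regions were counted at 2 genes each.

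**Figure D1:**
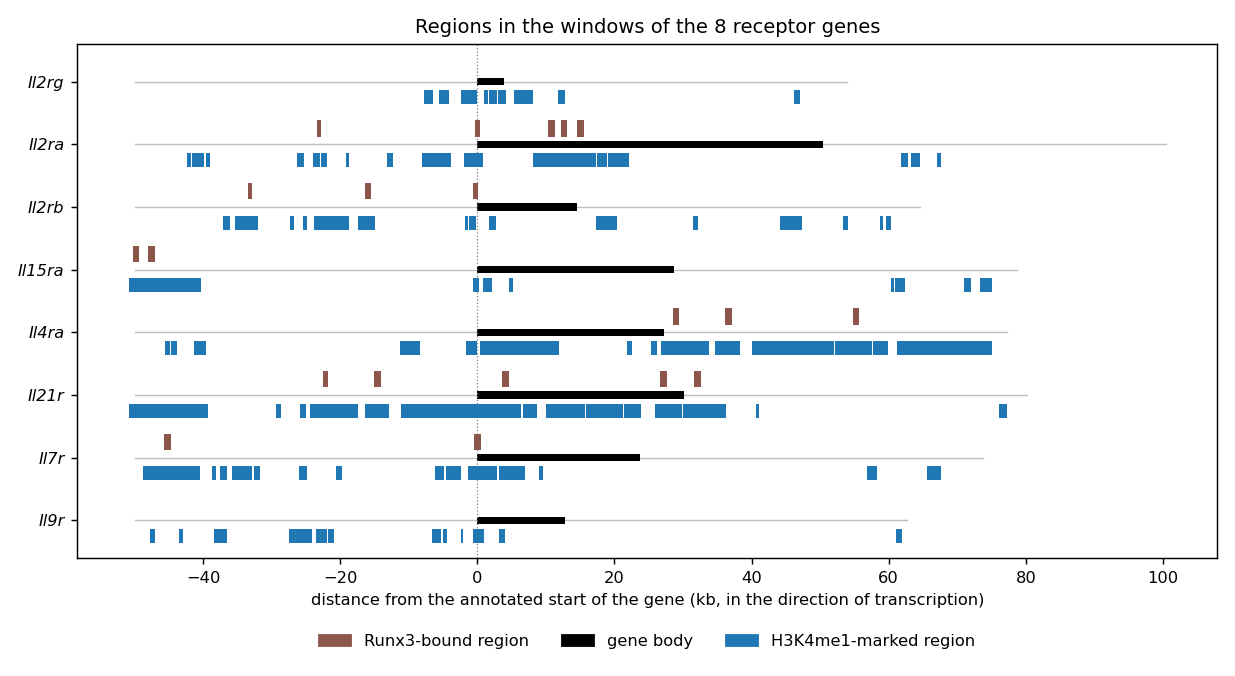
Position of the Runx3-bound regions (brown, above) and H3K4me1-marked regions (blue, below) around the 8 receptor genes, against the distance from the annotated start in kb, with the gene body in black and the window as a grey line. Runx3 lies at the start of Il2ra, Il2rb and Il7r, and H3K4me1 covers most of the stretch between Il4ra and Il21r (88.3%) and of the body of Il21r (86.8%).

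Relative to the nearest receptor start, 3 of the 15 regions lay less than 1 kb away, 1 between 1 and 5 kb, and 11 between 5 and 50 kb. A region less than 1 kb from its own start was thus present at 3 of 8 receptor genes, and at 3.72% of all protein-coding genes. By the midpoint 8 regions were intergenic, 6 were intronic and 1 lay in the untranslated first exon of Il7r.

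H3K4me1 was present in the windows of 8 of 8 receptor genes, against 79.3% of all protein-coding genes. The share of a window covered by H3K4me1 was highest at Il21r (52.1%) and Il4ra (51.0%), followed by Il7r (25.6%), Il2rb (21.1%), Il2ra (20.4%), Il15ra (13.2%), Il9r (12.8%) and Il2rg (12.2%). The median of 20.8% compares with 5.96% over all genes, and the lowest receptor gene, Il2rg, was above 71.7% of them. Since there is no replicate spread, close neighbours in this order cannot be told apart. The annotated start itself was covered at 5 of 8 receptor genes and at 17.7% of all genes. At Il4ra, Il2rg and Il2rb the nearest H3K4me1-marked region ended or began 46, 58 and 157 bp from the start.

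**Figure D2:**
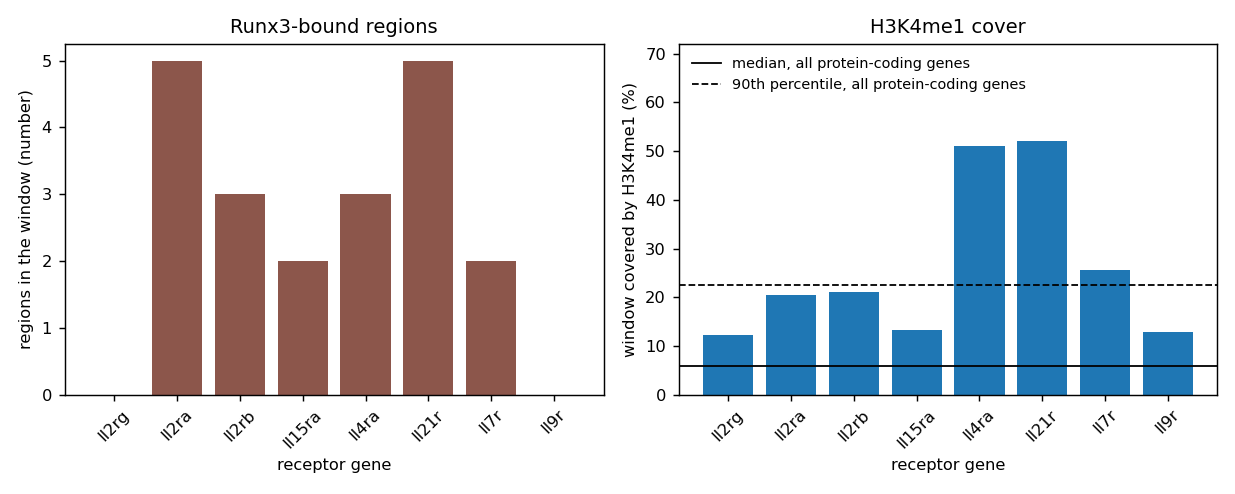
Left, number of Runx3-bound regions in the window of each receptor gene. Right, percent of the window covered by H3K4me1, with the median (5.96%) and the 90th percentile (22.5%) of all protein-coding genes as lines; Il4ra, Il21r and Il7r exceed the latter.

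Il2rg, which encodes the shared chain, is on chromosome X (98459717 to 98463594, minus strand). It had no Runx3-bound region, and the nearest one lay 136 kb from the gene. Chromosome X as a whole was sparse in Runx3, with 138 regions, and 14.8% of its 932 protein-coding genes had one in their window. Nevertheless, 9 H3K4me1-marked regions lay in the window of Il2rg, 3 of them with the midpoint in the gene, which was 66.5% covered. The cover of the window exceeded that of 95.2% of chromosome X genes, whose median was 0.389%. A predicted gene, Gm20489, is annotated over the same bases.

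Il2ra encodes the inducible alpha chain of the IL-2 receptor, also known as CD25 (chromosome 2, 11564419 to 11614818, plus strand). One Runx3-bound region spanned its start, at 11564057 to 11564767, with the midpoint 7 bp upstream, in an H3K4me1-marked region of 2851 bp. Inside the gene, in intronic sequence, adjacent regions lay at 11574717 to 11575679, 11576671 to 11577521 and 11578910 to 11579944, or 10.8, 12.7 and 15.0 kb downstream of the start. Their midpoints were 1898 and 2331 bp apart. The last 2 shared an H3K4me1-marked region of 5695 bp, wider than 98.0% of the list. The fifth region, 23.1 kb upstream at 11540962 to 11541672, was intergenic, and the transcript start nearest to it was that of the predicted gene Gm17355 (5650 bp away).

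Il15ra, the alpha chain that presents IL-15, lies 12095 bp beyond Il2ra on the same strand (11626914 to 11655613). Its 2 Runx3-bound regions were those in the Il2ra intron, 49.8 and 47.5 kb upstream of the Il15ra start. Neither had its nearest transcript start at Il15ra, and with a margin of 10 kb the count for Il15ra was 0. A further Il2ra region lay just outside the limit, 51.7 kb from Il15ra. H3K4me1 covered the Il15ra start with a region of 919 bp and 7.46% of the gene body, and 5.43% of the stretch between the 2 genes.

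Il2rb encodes the beta chain used by both IL-2 and IL-15 (chromosome 15, 78310983 to 78325496, minus strand). A Runx3-bound region at 78325334 to 78326132 covered its promoter, with the midpoint 237 bp upstream of the start. H3K4me1 covered 60.1% of that region, the least among the 15. A second region lay 15.9 kb upstream (78340981 to 78341911) between the genes, in an H3K4me1-marked region of 2488 bp. The third, 33.2 kb upstream (78358340 to 78358964), was in an intron of the neighbouring gene C1qtnf6 and 1403 bp from a transcript start of that gene. It was 625 bp wide, the narrowest of the 15. The widest H3K4me1-marked region of this window, of 5154 bp, lay between the latter 2 and held no Runx3. The body of Il2rb was 6.17% covered, the lowest of the 8 genes.

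Il4ra, which binds IL-4 with the shared chain, and Il21r, which binds IL-21, are neighbours on chromosome 7 (132695785 to 132722986 and 132746943 to 132777084, both plus strand). Together their windows held 5 Runx3-bound and 22 H3K4me1-marked regions. None of the 5 lay in Il4ra. The first, at 132724397 to 132725141, was between the genes, 29.0 kb downstream of the Il4ra start and 22.2 kb upstream of that of Il21r. The next, at 132731887 to 132732879, was also between them, 14.6 kb upstream of Il21r. In introns of Il21r there were regions at 132750544 to 132751524 and 132773562 to 132774556, 4.09 and 27.1 kb downstream of its start. The last, at 132778604 to 132779619, lay beyond the end of Il21r, 32.2 kb from its start. The intronic region at 27.1 kb was 51.1 kb from the Il4ra gene, just outside the limit of that window.

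The stretch of 23956 bp between Il4ra and Il21r was 88.3% covered by H3K4me1, and the body of Il21r was 86.8% covered. The widest H3K4me1-marked region at any receptor gene, at 132735875 to 132747874, spanned 12000 bp and the start of Il21r, and ranked 172 by width among the 76705. The second, of 11526 bp, lay in the body of Il4ra (132696126 to 132707651). Neither of these overlapped a Runx3-bound region. The 5 regions that did measured between 2768 and 6993 bp.

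Il7r encodes the alpha chain of the IL-7 receptor (chromosome 15, 9435916 to 9459631, minus strand). One Runx3-bound region, at 9459130 to 9460058, spanned its start with the midpoint 37 bp downstream, within an H3K4me1-marked region of 4207 bp. The other, at 9504262 to 9505265, was intergenic and lay 45.1 kb upstream in an H3K4me1-marked region of 7647 bp. A further Runx3-bound region was found 6069 bp from it but 51.2 kb from Il7r, and thus just outside the limit. Il9r, which binds IL-9 (chromosome 11, 32087541 to 32100279, minus strand), had no Runx3-bound region, and the nearest lay 61.2 kb away. Its 13 H3K4me1-marked regions were 2054 bp or less in width, and one of 1635 bp covered the start.

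All 15 Runx3-bound regions overlapped H3K4me1 (interval 78.2 to 100%), as did 78.8% of the whole Runx3 list and 86.0% of the 4085 listed regions in the window of any protein-coding gene. The count was also 15 when the midpoint had to lie inside or 50% of the region had to be covered. H3K4me1 covered 13 of the 15 over their whole width (86.7%, interval 59.5 to 98.3%), against 50.6% of the list and 54.6% of those in gene windows. The exceptions were the Il2rb promoter region (60.1%) and the region 23.1 kb upstream of Il2ra (89.3%), which bridged 2 H3K4me1-marked regions. Another Runx3-bound region lay within 10 kb for 8 of the 15 (53.3%, interval 26.6 to 78.7%), against 18.5% of the list and 20.3% of those in gene windows. These were the 3 in the Il2ra intron, 4 at Il21r and the remote one of Il7r. Widths of the 15 ranged from 625 to 1035 bp with a median of 931 bp, beside 851 bp for the list.

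Runx3 overlapped 15 of the 99 receptor H3K4me1 regions (15.2%, interval 8.74 to 23.8%), against 5.49% of the list. Those 15 had a median width of 2851 bp and the other 84 one of 1041 bp. In the whole list the medians were 2260 and 946 bp. A RUNX motif was found in the 200 bp around the midpoint of 23 of the 84 H3K4me1-marked regions without Runx3 (27.4%), against 32.1% of such regions in the list.

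**Figure D3:**
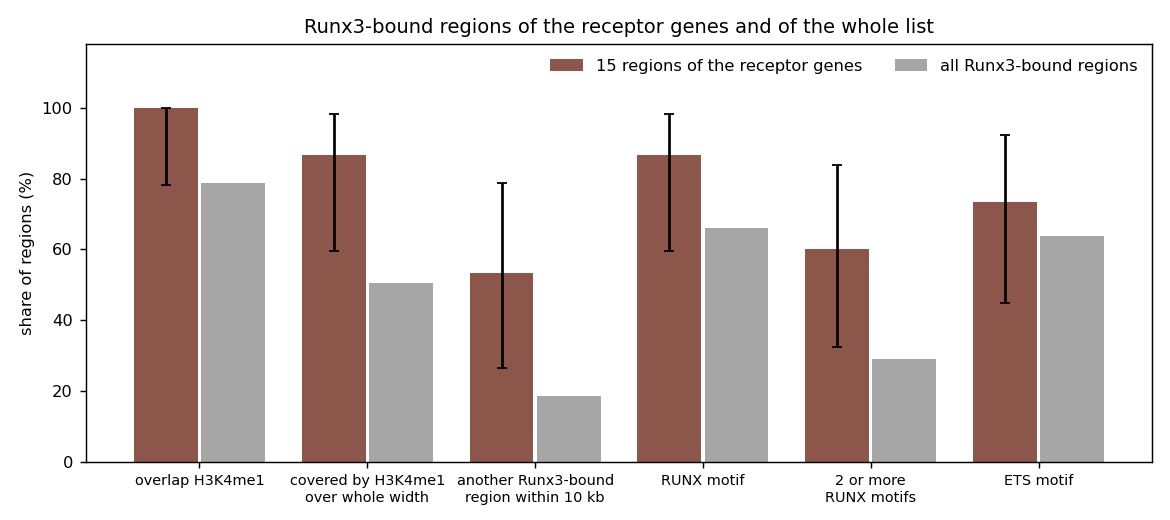
Share in percent of the 15 Runx3-bound regions of the receptor genes (brown, with exact 95% binomial intervals) and of all 4934 Runx3-bound regions (grey) with each property. The share of the list lies within the interval for H3K4me1 overlap, the RUNX motif and the ETS motif. The 15 regions are not independent of each other and their choice followed earlier results, so the intervals do not test the other properties.

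A RUNX motif was present near the midpoint in 13 of the 15 regions (86.7%, interval 59.5 to 98.3%), against 66.0% of the list and 70.3% of the listed regions in gene windows. There were 2 or more in 9 (interval 32.3 to 83.7%), against 28.9% and 31.0%. Searched over their whole width, 15 of 15 held at least 1 (interval 78.2 to 100%), which is near the 88.8% of the list and the 92.0% in gene windows, with a median of 3 motifs against 2 in the list. The regions with none near the midpoint were the one 23.1 kb upstream of Il2ra and the one in C1qtnf6, which were also the 2 whose nearest transcript start was that of another gene outside the receptors. The variant TGTGGT made up 18 of the 23 motifs and was present in 11 of 15 regions (46.6% of the list). TGTGGC was present in 3 (22.4% of the list) and TGCGGT in 1 (10.7%), the Il2ra promoter region. TGCGGC was found in none (5.43%).

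Pairs of motifs at most 10 bp apart were found in 2 of the 15 regions and in 7.28% of the list. In the Il2ra intron 2 copies of TGTGGT in the same orientation were 5 bp apart. In the region 15.9 kb upstream of Il2rb, TGTGGC and TGTGGT on the minus strand were 1 bp apart. In the Il2rb promoter region the 2 copies of TGTGGT were 23 bp apart. The motif of the Il2ra promoter, TGCGGT on the minus strand, lay at 11564348 to 11564353, and that of Il7r, TGTGGT in the orientation of the gene, at 9459623 to 9459628.

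Motifs of other factors were searched in the same 200 bp. The ETS motif (the letters AGGAAA or otherwise AGGAAG, and with C first the letters CGGAAA or otherwise CGGAAG, both strands) was present in 11 of 15 regions (73.3%, interval 44.9 to 92.2%), against 63.8% of the list. RUNX and ETS motifs occurred together in 10 of the 15, and in 44.3% of the list. They shared 1 base in the second intronic region of Il21r and were 9 bp apart in the Il2ra region at 15.0 kb. The AP-1 motif (TGACTCA or otherwise TGAGTCA) was found once, in the first intronic region of Il21r, and in 4.58% of the list. No region held the STAT motif TTCNNNGAA, whose letters can overlap those of the ETS motif, or TTCNNNNGAA, the spacing preferred by Stat6. These were found in 6.73% and 5.80% of the list. None held the FOXO motif TGTTTAC (3.63%) or the T-box motif AGGTGTGA (1.05%). With 15 regions, none found allows a share of up to 21.8% (exact interval).

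**Figure D4:**
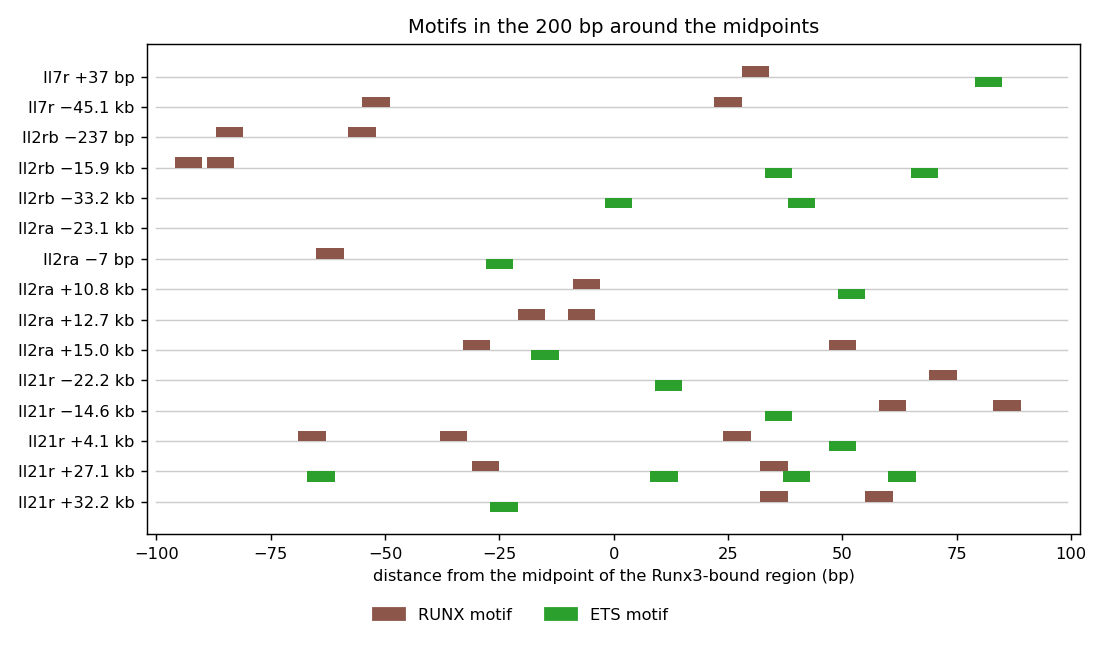
RUNX motifs (brown) and ETS motifs (green) in the 200 bp around the midpoint of each of the 15 Runx3-bound regions, against the distance from the midpoint in bp. RUNX motifs are present in 13 of the regions and ETS motifs in 11, and the region of Il2ra at 23.1 kb upstream holds neither.

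The promoters were also searched for the RUNX motif, from 250 bp before to 50 bp after the annotated start. A motif was found at 6 of 8 receptor genes and at 45.3% of all protein-coding genes. It was present at Il2ra (TGCGGT) and at Il2rb, Il2rg, Il7r, Il9r and Il21r (TGTGGT), with 2 copies at Il2rb, and was not found at Il4ra and Il15ra. Among the 6, a Runx3-bound region lay less than 1 kb from the start at Il2ra, Il2rb and Il7r.

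The receptors were set beside 19 other genes of the pathway by the same rule. Of these, 10 had a Runx3-bound region and 18 an H3K4me1-marked region, against 30.8% and 79.3% of all protein-coding genes. The median cover of the 19 windows was 12.4%, against 5.96% over all genes. Among the 6 ligands, Il9 had 2 Runx3-bound regions and Il21 had 1, whereas Il2, Il4, Il7 and Il15 had 0, and the median H3K4me1 cover of the ligand windows was 4.49%. Of the kinases that the receptor chains bind, Jak1 had 5 regions and Jak3 had 1, with 49.4% and 21.3% of the window covered. Of the STAT genes described here, Stat5b had 2, Stat3 and Stat5a had 1 and Stat6 had 0. Of the feedback inhibitors, Socs1 and Cish had 1 each, and Socs2 and Socs3 had 0. Of the partner chains outside the family, Crlf2 had 0 regions of either list and Il13ra1 had 2 H3K4me1-marked regions.

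Among 15 cytokine receptor genes that do not use the common gamma chain, 13 had a Runx3-bound region, against 30.8% of all protein-coding genes. Their median was 2 regions per gene, and their median H3K4me1 cover was 24.5%. Ifnar1 had 8, while Ifnar2 and Il10rb, which lie in the same neighbourhood, had 6 each. The windows of several of these genes overlap, so that regions were counted at more than 1 gene here too. These values lie close to those of the 8 genes (6 with Runx3, median 2.5, cover 20.8%), and no difference between the families was tested. All 26 Runx3-bound regions of those 15 genes overlapped H3K4me1, as did 86.0% of the listed regions in the window of any protein-coding gene.

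The distribution of H3K4me1 around the start was compared with that of other genes over 40 bins of 2.5 kb. The genes most like Il2ra were 1110008F13Rik (Pearson r = 0.70 across bins), Dnajb13 (0.68) and Tbx6 (0.68), with 2, 0 and 0 Runx3-bound regions. Those most like Il21r were Chst15 (0.67), Tbc1d17 (0.64) and Usp3 (0.61), with 1, 0 and 1. Neighbouring bins share wide regions, so these coefficients describe the shape alone.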

How the data were processed

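Lists of Runx3-bound and H3K4me1-marked regions of resting CD8-TC were analysed. Per the labels and the methods of the study, sheared chromatin was about 300 bp in size. It was immunoprecipitated with an in-house rabbit antibody to Runx3, an antibody to H3K4me1, or NIS. Reads of 40 to 42 bp were aligned by the authors to mm9 with ELAND (CASAVA 1.6 and 1.7 in the submitters' processing notes). The authors called regions with MACS on joined repeats with NIS as control. The deposited columns hold starts and ends in bp, with no score.

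Starts were moved by 1 bp to count from 1. Genes came from the GENCODE annotation of NCBIM37, the same build as mm9, and all regions lay within its chromosomes. Gene starts are the 5′ ends of gene models, and distances run from midpoints. The nearest protein-coding start was instead sought among the starts of all annotated transcripts. Overlap meant at least 1 bp. Every region in a receptor window was named. Members, gene lists, motifs and the limits used to count were chosen with earlier results of these data known. Alternatives were other margins, any overlap with the window, merging, the nearest start, stricter overlap and other motif windows. No test of significance was run. Values of some listed pathway genes are not reported here. Functions were tested on simulated data. Python 3.11.15, numpy 2.4.6, scipy 1.17.1 and matplotlib 3.10.9 were used.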

Additional observations from a re-analysis of the deposited data

How the results depend on the processing

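No paired analysis was possible because the regions of an antibody were called on pooled repeats, and leaving out a repeat was not run for the same reason. A stricter score was not applied because the lists hold no score. Of 35 alternative values for 7 results, 25 were counts within 1.5 times the reported one, and the others follow. With the gene body alone, 3 receptor genes held 6 Runx3-bound regions and all 8 held 25 H3K4me1-marked regions between them. Of all genes, 8.52% held Runx3 and 59.9% held H3K4me1 by this rule. With a margin of 10 kb there were 49 H3K4me1-marked regions, and with 100 kb 24 Runx3-bound regions (15.5% and 44.1% of all genes with Runx3). H3K4me1-marked regions numbered 59 after merging neighbours within 1000 bp and 51 when each went to the nearest protein-coding transcript start. The median H3K4me1 cover was 28.6% with 10 kb, 18.3% with 100 kb and 29.7% in the gene body, against 5.89%, 6.27% and 4.13% over all genes. Smaller windows hold fewer regions by construction. By the nearest transcript start, Il15ra kept 0 and Il4ra 1 Runx3-bound region, which lay 16705 bp from an Il4ra transcript start and 28984 bp from the start of the gene. A gene without a called region may hold one below the calling threshold.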
